A study of Mus musculus with 2 samples.

Results

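Delta cells of the mouse islet were examined in 2 single-cell RNA libraries, one of islets from virgin mice and one of islets from multiparous mice (multipara). The cells were selected on their hormone reads. A barcode was kept as a cell when its count of detected genes was above 200 and below 6000, its unique molecular identifiers (UMIs, 1 per captured transcript) numbered under 60000 and its mitochondrial share was below 10%. A kept cell counted as a delta cell when Sst made up 5% or more of its UMIs while Ins1 and Ins2 together, Gcg and Ppy each stayed under 5%. This gave 490 delta cells among 7765 kept cells, 254 of 4391 in the virgin library and 236 of 3374 in the multipara library. Levels of those hormones are therefore given as a description of the cells and support nothing.

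All mice were wild-type C57BL/6J females that entered the study at 9 weeks of age. The multipara group went through 3 consecutive pregnancies, the virgin group was matched to it in age, and islets were taken 3 weeks after the last delivery. Isolated islets were held briefly in serum-containing medium and broken into single cells with trypsin, and transcripts were tagged from their 3′ ends with 10x Genomics v3.1 chemistry. Each group is a single library, stated to stand for more than 1 mouse, but the exact number in each and the mouse of each cell are not given in the sources used here. No difference between the groups could therefore be tested, and every interval below is a 95% interval for counting error alone, which leaves out the spread between mice and between library preparations.

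Delta cells are the somatostatin-secreting cells of the islet. Somatostatin acts through Gi-coupled receptors on neighbouring beta and alpha cells and restrains the release of insulin and glucagon. Delta cells are themselves electrically excitable, and glucose, the beta cell peptide urocortin 3, ghrelin and free fatty acids act on them through channels and receptors. Prosomatostatin transcription is driven by the homeodomain factors Pdx1, Isl1 and Hhex and by a cAMP response element (CRE), the site in the Sst promoter where the activator CREB binds. Immediate early genes such as Fos and Jun, many of them also targets of cAMP, calcium and MAP kinase signals, are transcribed within minutes of a stimulus and are also known to be induced while tissue is broken into single cells.

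The promoter of Sst, the gene that defines these cells, is printed here as a description of sequence. So are the matching stretches of the immediate early genes with the same element. The sequences are RefSeq's on GRCm38.p6, each read 5′ to 3′ on the strand of its gene, with the palindromic CRE (TGACGTCA, which reads the same on both strands) in capitals. The Sst stretch is the 250 bases at chr16:23890845-23891094 on the minus strand, immediately before the RefSeq start of the gene. The others are the motif with up to 30 bases on either side, at chr1:134079284-134079351 (minus strand, Btg2), chr17:26508578-26508645 (minus strand, Dusp1), chr7:45526269-45526310 (minus strand, Ppp1r15a) and chr15:79347461-79347519 (plus strand, Maff).
Sst: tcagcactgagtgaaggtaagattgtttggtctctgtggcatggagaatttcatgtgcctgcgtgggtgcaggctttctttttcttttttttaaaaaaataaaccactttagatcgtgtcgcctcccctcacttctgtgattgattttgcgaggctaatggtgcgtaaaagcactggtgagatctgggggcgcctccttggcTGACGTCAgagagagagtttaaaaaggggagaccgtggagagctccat
Btg2: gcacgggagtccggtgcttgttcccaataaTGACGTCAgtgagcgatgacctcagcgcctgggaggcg
Dusp1: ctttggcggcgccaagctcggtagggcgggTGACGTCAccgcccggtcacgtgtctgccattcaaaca
Ppp1r15a: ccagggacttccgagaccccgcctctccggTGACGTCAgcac
Maff: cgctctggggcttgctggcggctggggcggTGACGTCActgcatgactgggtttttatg

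In Sst the first base of the CRE lay 48 bases before the RefSeq start, against 166 bases in Btg2, 143 in Dusp1, 12 in Ppp1r15a and 29 in Maff. The GENCODE M21 model of Sst (chr16:23889573-23890958, protein coding) begins 114 bases farther upstream than the RefSeq model, so that the element falls inside the longer model. The printed stretches of Dusp1 and Maff also lie inside their GENCODE genes (chr17:26505590-26562128 and chr15:79346621-79359076). Those of Btg2 and Ppp1r15a lie upstream of theirs. In the 250 bases before the start of all RefSeq promoters, 478 of 27025 genes (1.77%) held the intact motif. It was found in 4 of the 34 immediate early genes that matched a RefSeq promoter (11.8%), in none of 16 matched cholesterol synthesis genes, none of 21 matched heat shock genes and none of 34 matched genes of the endoplasmic reticulum (ER). Of the 12 genes with the highest ratio of multipara over virgin described below, 10 matched a RefSeq promoter and none held the motif. A match is a description of these letters and not evidence of binding.

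The virgin library held 5463 barcodes with 94853806 UMIs and the multipara library 5075 barcodes with 82503776 UMIs. The 254 virgin delta cells summed to 2678827 UMIs with a median of 10263.5 per cell (784 to 28578), and the 236 multipara delta cells to 2379749 with a median of 10191.5 (1098 to 24081), so the 2 sets were alike in depth. Median genes per delta cell were 3023 and 2900.5 and median mitochondrial shares 3.93% and 3.71%. The libraries had 7 barcodes in common, 1 of which was a delta cell in one of them and none in both. Scrublet, a doublet caller, marked 79 of 4391 virgin cells and 18 of 3374 multipara cells, among them 3 virgin and 0 multipara delta cells. Levels are given below as CPM, a gene's UMIs over all delta cells of a library per 1000000 UMIs of those cells, and since each transcript yields 1 tag at its 3′ end they need no correction for gene length.

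Transcripts best known from other cells were counted in the delta cells, at levels that differed between the libraries. Ins1, Ins2 and Gcg are hormones of the selection, so their levels are a description only. The source of these transcripts was not tested. Ins2 stood at 5066 CPM in virgin and 10152 CPM in multipara delta cells and Ins1 at 1761 and 3821 CPM, and both were also higher in multipara alpha cells (Ins2 3839 and 6349 CPM) and in multipara pancreatic polypeptide (PP) cells. Gcg went the other way, with a median share of 0.133% of a delta cell's UMIs in virgin and 0.0896% in multipara. The 8 endothelial marker genes held 732 UMIs in virgin delta cells, of which 658 sat in 3 cells (128 to 276 each, with no more than 2 in any other cell), against 87 UMIs and at most 4 per cell in multipara. T and B cell markers summed to 14.6 CPM in virgin and 0.84 CPM in multipara. Mesenchymal markers summed to 2.61 and 0.42 CPM and red cell markers to 0.75 and 22.7 CPM. Macrophage markers summed to 90.7 and 119 CPM. Highest among them was C1qa, which had UMIs in 52.8% (virgin) and 54.7% (multipara) of delta cells. Cd74, the next by level, had them in only 3.94% and 2.97%. The macrophage sum is therefore not taken as a measure of macrophage RNA, and the source of C1qa was not tested. Any part that RNA of other cells had in the results below was not tested, except where a value without the 3 cells with endothelial UMIs is given.

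The defining marker genes of delta cells were present in both libraries. Sst (median 17.9% of a cell's UMIs in virgin and 20.1% in multipara) was accompanied by Rbp4, a retinol carrier, at 5550 and 5734 CPM, against at most 1185 CPM in alpha, 89.8 CPM in beta and 371 CPM in PP cells of either library. Hhex (chr19:37434810-37440731, plus strand), the homeodomain factor that maintains delta cells, stood at 353 and 364 CPM and was seen in 92.1% and 90.3% of cells, against 3.12 and 0.64 CPM in alpha cells. Ghsr, the ghrelin receptor, gave only 37 and 36 UMIs, or 13.8 CPM (virgin) and 15.1 CPM (multipara). Its UMIs fell in 12.6% of virgin delta cells (8.78 to 17.3%) and 13.6% of multipara delta cells (9.46 to 18.6%), while alpha cells, which are deeper (median 16365.5 and 17409 UMIs) and should lack the gene, showed it in 0.29% and 0% of cells. With each delta cell thinned to 5500 UMIs the shares were 7.63% and 8.02%. Of 10 other genes known from delta cells that had 10 UMIs or more (16 were listed), 1 was higher (Ly6h) and 9 were lower in multipara. Their median log2 ratio was -0.23, and none of the 6 at 50 CPM or more passed 1.5-fold. Over all 11609 genes with 10 UMIs or more, 37.8% were higher and the median was -0.09. Of all 2492 genes at 50 CPM or more, 0.883% were higher and 0.482% lower by over 1.5-fold.

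The 18 markers of the other endocrine lineages summed to 96744 CPM in virgin and 99599 CPM in multipara delta cells, nearly all of it from the peptide hormones Pyy, Iapp, Ppy, Ins1 and Ins2. Transcription factors among them were low: the alpha cell factor Irx1 gave 6 and 3 UMIs, against 96.7 and 88.0 CPM in alpha cells, and the beta cell factor Mafa 6.72 and 14.3 CPM, against 324 and 337 CPM in beta cells. Slc2a2, the glucose transporter of beta cells, was at 4.85 and 7.14 CPM, against 283 and 209 CPM in beta cells. Ttr, the transthyretin gene that is abundant in alpha cells, was at 231 and 195 CPM, against 39015 and 38462 CPM in alpha cells.

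Delta cells made up 5.78% of virgin cells (5.11 to 6.52%) and 6.99% of multipara cells (6.16 to 7.91%). Among cells assigned to 1 of 4 hormones by mirrored rules (3244 and 2671 cells) the shares were 7.83% (6.93 to 8.81%) and 8.84% (7.79 to 9.98%). The intervals overlapped.

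The Sst limit cut through a sparse region, but the Ppy limit did not. Between 4 and 5% Sst there were 4 virgin cells and no multipara cell otherwise like delta cells, between 5 and 6% there were 7 and 1, and from 10% upward 235 and 225. No cell otherwise like delta cells lay between 3 and 10% Gcg, and between 3 and 5% insulin there were 2 virgin and 6 multipara such cells. Ppy, which encodes pancreatic polypeptide, ran on without a break. There were 32 virgin and 36 multipara cells otherwise like delta cells between 4 and 5% Ppy and 30 and 31 such cells between 5 and 6%. Of all cells with Sst at 5% or more (411 and 354), 113 virgin (27.5%) and 86 multipara cells (24.3%) reached 5% Ppy, and 107 and 81 of them failed the delta rule on Ppy alone.

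**Figure D1:**
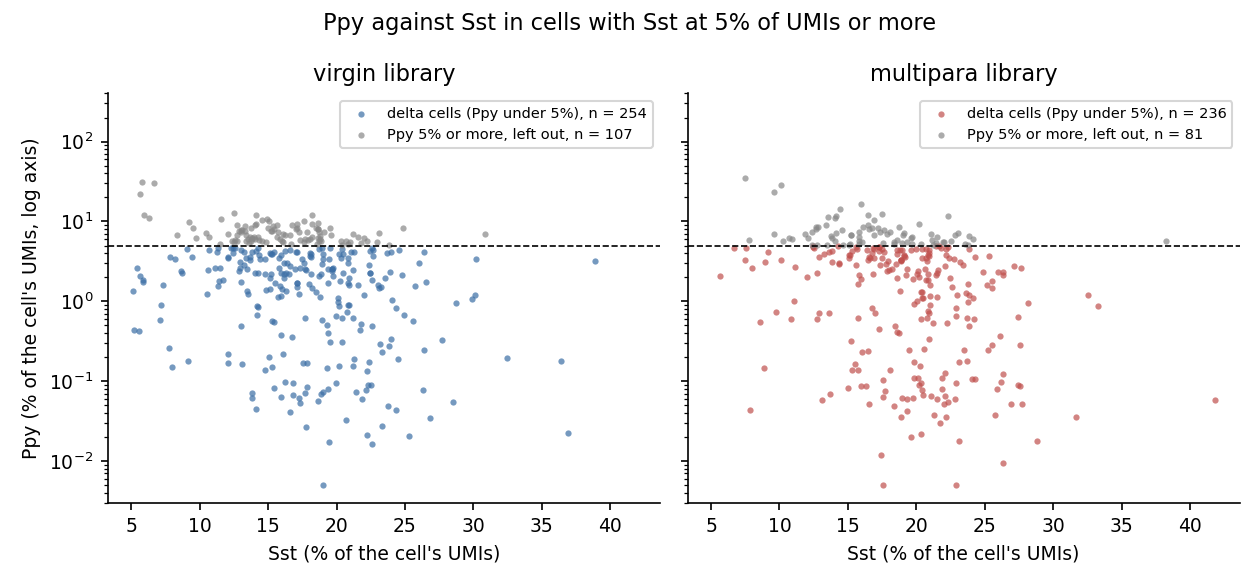
Share of a cell's UMIs from Sst (x axis, %) against the share from Ppy (y axis, %, log scale) in each library, with 1 point per cell with Sst at 5% or more. Coloured points are delta cells (254 and 236), grey points the 107 and 81 cells left out for Ppy alone, and the dashed line is the 5% limit, which passes through the densest band of cells.

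The cells just past the Ppy limit carried delta genes and not the profile of PP cells. Hhex was 344 CPM in virgin delta cells with Ppy under 1%, 359 CPM in those between 1 and 5% and 293 CPM in the 107 cells past the limit, against 16.3 CPM in PP cells. In multipara the same order gave 347, 377 and 298 CPM, against 7.65 CPM in PP cells. Rbp4 (5377, 5667 and 4618 CPM in virgin, 5800, 5685 and 5769 in multipara), Isl1 (442, 463 and 405 in virgin) and Cd24a (495, 455 and 448 in virgin) were likewise of similar level on both sides of the limit. Pyy, which encodes peptide YY, was at 46112, 44163 and 49909 CPM in the virgin sets and 36564, 38067 and 45447 CPM in the multipara sets, against 121748 and 120639 CPM in PP cells.

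Few genes tracked Ppy. Of 2406 genes compared, cells with Ppy at 5% or more were higher than cells under 1% by over 1.5-fold in both libraries for 2 genes (0.0831%), Ppy itself and Cela1, and lower for 3 genes (0.125%), Sorcs2, Crem and A230057D06Rik. Cela1 (chr15:100674421-100687921, minus strand), which encodes a pancreatic elastase, went from 75.3 CPM under 1% Ppy to 145 CPM between 1 and 5% and 250 CPM past the limit in virgin cells, and from 114 to 135 and 231 CPM in multipara cells. The log2 ratio of the highest to the lowest range was 1.73 (1.37 to 2.10) in virgin and 1.02 (0.68 to 1.37) in multipara. PP cells held only 16.3 and 12 CPM of Cela1, below every Ppy range of the delta cells. Cela1 was also uneven within the delta cells, with UMIs in 30.3% of virgin and 30.1% of multipara cells and 70.6% and 72.9% of its UMIs in the 10% of cells with the most. Crem, which encodes cAMP-responsive regulators that bind the CRE, was at 64.2 CPM in the lowest and 41.6 CPM in the highest Ppy range in virgin, and at 66.6 and 38.5 CPM in multipara.

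Beyond Sst, delta cells held a set of genes that the other endocrine cells had little of. Of 2492 genes at 50 CPM or more in delta cells, 125 (5.02%) were over 2-fold above the highest of alpha, beta and PP cells in both libraries. That limit was set on delta cells alone, so genes high there pass it more readily. No matching count was made for the other sets, so 125 has no background to be read against. CPM is a share of all UMIs, and hormones took a smaller part of that total in delta cells. The 27 listed peptide hormone and neuropeptide genes summed to 281925 CPM in virgin delta cells. They summed to 397440 CPM in virgin alpha, 615284 in beta and 556028 in PP cells. The count of 125 was not corrected for this. By ratio, the leading genes were Cd24a, a surface sialoglycoprotein (471 CPM in virgin, 559 CPM in multipara), Fam159b (825 and 795 CPM), Hhex, Ly6h (338 and 391 CPM) and Mef2c, a transcription factor of excitable cells (176 and 179 CPM). Cd24a, Ly6h and Mef2c were at 22.1 CPM or less in alpha, beta and PP cells of both libraries. Several of the 25 leading genes are best known from neurons: Gap43, a growth cone protein, stood at 182 and 178 CPM, Dpp6, an auxiliary subunit of Kv4 potassium channels, at 220 and 211 CPM, and Ptprz1, a receptor phosphatase, at 109 and 121 CPM. Arg1, which cleaves arginine to ornithine and urea, stood at 435 and 461 CPM against 58.1 and 45.6 CPM in alpha cells and 5.57 and 1.95 CPM in beta cells. The list also held Hspa1a, an inducible heat shock protein, at 979 CPM in virgin and 1470 CPM in multipara delta cells, and Fabp5, a fatty acid carrier, at 134 and 193 CPM. Spock3 was at 72.0 and 70.6 CPM against 0.36 and 0.18 CPM in alpha cells, and Cela1 at 117 and 126 CPM against 0.78 and 0.18 CPM.

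**Figure D2:**
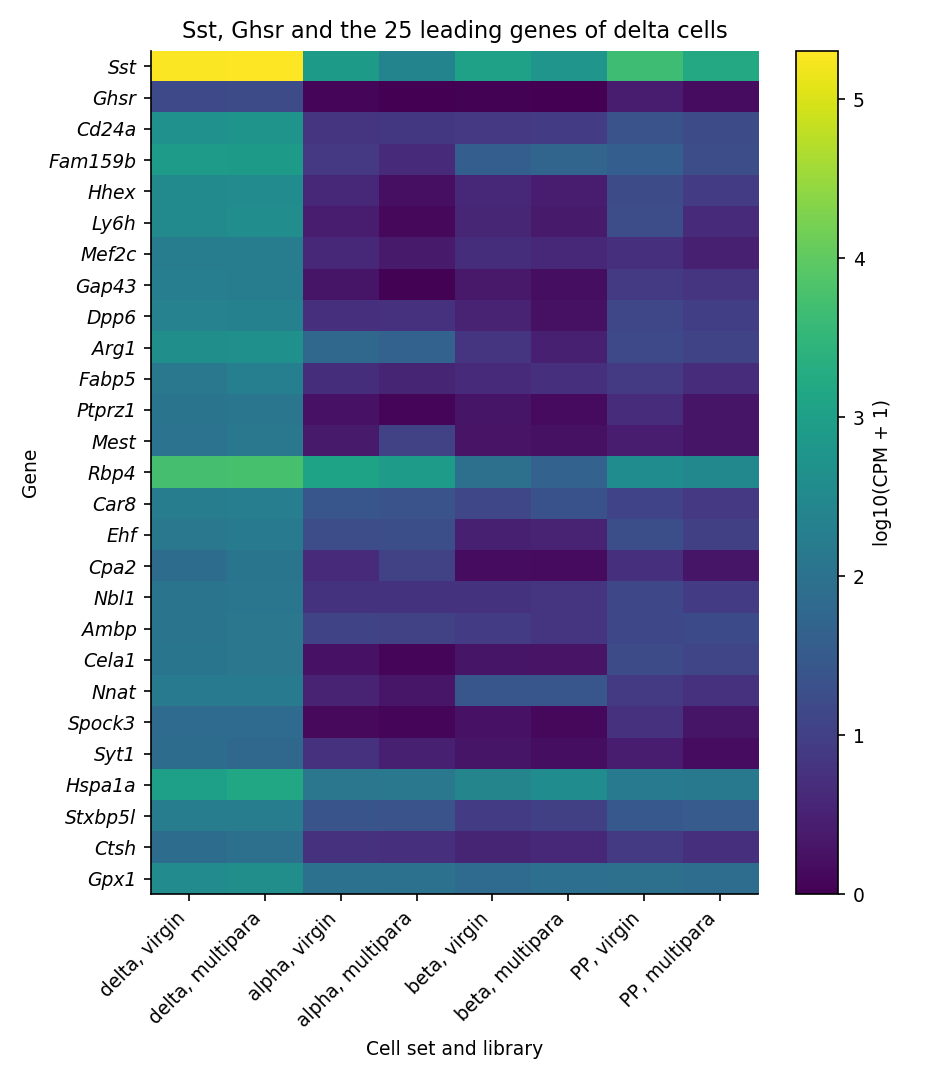
Heat map of log10(CPM + 1) for Sst, Ghsr and the 25 genes with the highest ratio of delta cells to the highest of alpha, beta and PP cells (rows), in the 4 cell sets of each library (columns). The 2 delta columns are bright for Cd24a, Hhex, Ly6h and Rbp4 in both libraries, and Ghsr is faint even in delta cells (13.8 and 15.1 CPM).

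The transcription factors of delta cells were close in both libraries. Isl1 was 455 CPM in virgin and 422 CPM in multipara, Meis2 326 and 342, Pax6 220 and 209 and Pdx1 98.6 and 87.4, with Pdx1 at only 36 UMIs (3.27 CPM) in multipara and 50 UMIs in virgin alpha cells. Neurog3, the factor of endocrine progenitors, was detected in delta cells of adult islets, in 34.6% of virgin cells (28.8 to 40.8%) and 24.2% of multipara cells (18.8 to 30.1%), against 1.25% and 0.47% of the deeper alpha cells. Its level was 45.9 CPM in virgin and 30.3 CPM in multipara, a log2 ratio of -0.60 (-1.04 to -0.17). Of 27 islet transcription factors with 10 UMIs or more, 14 were higher and 13 lower in multipara, with a median log2 ratio of 0.05, and none of the 14 at 50 CPM or more passed 1.5-fold. Beside these counts and those of every list that follows stand the values over all genes. Of the 11609 genes with 10 UMIs or more, 37.8% had a log2 ratio above 0 and the median was -0.09, and of the 2492 genes at 50 CPM or more, 0.883% were higher and 0.482% lower by over 1.5-fold. A short list with no gene past 1.5-fold is therefore at the background.

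Among receptors for signals that reach delta cells, Ffar4, a receptor for long-chain fatty acids, was at 87.0 CPM in virgin and 71.4 CPM in multipara, above alpha (30.7 and 26.2), beta (4.32 and 1.97) and PP cells. The growth hormone receptor Ghr was at 102 and 83.6 CPM, the glucocorticoid receptor Nr3c1 at 74.7 and 75.2 CPM and the ATP receptor P2ry1 at 31.0 and 33.2 CPM. Crhr2, the receptor for urocortin 3, gave 19 and 11 UMIs. Ffar2, a receptor for short-chain fatty acids, was at 34.3 CPM in virgin and 55.0 CPM in multipara, a log2 ratio of 0.68 (0.29 to 1.08), against log2 ratios of 0.34 in alpha and 0.16 in beta cells. Prlr, the receptor for prolactin and placental lactogen, was low in delta cells, 15.7 and 20.2 CPM, and high in beta cells, 422 and 550 CPM. Of 27 hormone and peptide receptors with enough UMIs, 12 were higher and 15 lower in multipara (median log2 ratio -0.09, the same as the median over all genes).

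Some channel genes were far higher in delta cells than in the other endocrine sets. The T-type calcium channel gene Cacna1h was at 28.7 CPM in virgin and 39.1 CPM in multipara, against 0.36 and 0 CPM in alpha and 0.59 and 0.25 CPM in beta cells. The calcium channel subunit gene Cacna2d2 was at 50.4 and 62.2 CPM against at most 1.05 CPM in any other endocrine set, and the sodium channel subunit gene Scn3b at 44.0 and 46.6 CPM. The KATP channel genes were shared with the other cells: Abcc8 was 459 and 434 CPM and Kcnj11 53.4 and 44.1 CPM in delta cells. Of 36 channel genes, 10 were higher and 26 lower in multipara (median log2 ratio -0.13, beside 37.8% higher and -0.09 over all genes), and none of the 14 at 50 CPM or more passed 1.5-fold.

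The secretory granule genes lay near the values over all genes. Chga, Chgb and Scg2, which encode granins, were at 4176, 3261 and 3576 CPM in virgin and 4022, 3195 and 3717 CPM in multipara. Chgb stood out from alpha cells, which had 617 and 531 CPM. The median log2 ratio of 21 granule and hormone processing genes was -0.02, with 7 higher, 14 lower and none of the 17 at 50 CPM or more past 1.5-fold. Of 13 peptide hormone and neuropeptide genes with enough UMIs, the hormones of the selection included, 10 were higher and 3 lower (median 0.38), and the 3 of 7 at 50 CPM or more past 1.5-fold were Ins1, Ins2 and Gcg. The other peptide hormones differed from each other: Pyy was 44945 CPM in virgin and 37422 CPM in multipara (log2 ratio -0.26, -0.28 to -0.25), Iapp, which encodes amylin, 25083 and 28192 CPM, and Ppy 18002 and 18749 CPM. Pdyn, which encodes prodynorphin, was 28.0 and 49.2 CPM in delta cells (log2 ratio 0.81, 0.38 to 1.25) and 22.1 and 35.7 CPM in beta cells. Npy had 6 UMIs in 3 virgin cells and 41 UMIs in 11 multipara cells, 17 of them in a single cell.

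Few genes differed between virgin and multipara delta cells by over 1.5-fold, the size used here to call a difference because no test was possible. Of 2492 genes at 50 CPM or more, 22 (0.883%) were higher and 12 (0.482%) lower in multipara, so 64.7% of these genes were higher, against 81.1% (30 higher, 7 lower) under trimmed-mean (TMM) scaling, 42.6% (23 higher, 31 lower) with each cell thinned to 5500 UMIs and 40.3% (25 higher, 37 lower) with insulin, Gcg and Ppy each under 2%. The 22 include Ins1 and Ins2 and the 12 include Gcg, hormones of the selection, which are left out of the order below. The median over all genes, -0.09 in delta cells, was -0.10 in alpha, -0.08 in beta and -0.11 in PP cells.

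The highest ratio belonged to Egr4 (chr6:85511121-85513589, minus strand), an immediate early zinc finger factor. It was at 37.7 CPM in virgin and 141 CPM in multipara delta cells, a log2 ratio of 1.90 (1.58 to 2.24), against -0.08 in alpha and -0.27 in beta cells. It had UMIs in 19.7% of virgin cells (15.0 to 25.1%) and 33.9% of multipara cells (27.9 to 40.3%), or 11.4% and 26.4% at 5500 UMIs per cell, and 5 virgin and 25 multipara cells held 5 or more. Alpha cells, which are deeper, held it in 19.6% and 20.3% of cells. Next came 8430408G22Rik (109 to 239 CPM, 1.13, and 1.37 in alpha cells), the Ras-like protein gene Rasd1 (38.1 to 76.9 CPM, 1.01) and C2cd4b (207 to 400 CPM, 0.95). Snhg11, a host gene of small nucleolar RNAs, went from 44.0 to 79.0 CPM (0.84) with nearly the same share of cells holding it (20.9% and 22.9%). Hmgcs1, an early enzyme of cholesterol synthesis, went from 44.4 to 76.5 CPM (0.78, 0.44 to 1.13) and was also higher in multipara alpha (0.49), beta (1.0) and PP cells (1.51). Rgs4, a GTPase activator that shortens Gi and Gq signals, went from 150 to 274 CPM (0.87, 0.69 to 1.05), against 0.00 in alpha cells, and the related Rgs16 from 49.6 to 74.8 CPM (0.59) and Rgs2 from 197 to 245 CPM (0.31).

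The group with the most members among the higher genes was the list of 43 immediate early and dissociation response genes. In multipara delta cells 32 were higher and 11 lower, with a median log2 ratio of 0.23 against -0.09 over all genes. Of the 26 at 50 CPM or more, 7 were higher by over 1.5-fold (Egr4, Nfkbia, Gadd45g, Klf2, Npas4, Zfp36 and Jun) and none was lower, beside 0.883% of all genes. Nfkbia (chr12:55489410-55492647, minus strand), the inhibitor of NF-kB, was at 326 CPM in virgin and 605 CPM in multipara (0.89, 0.77 to 1.01). Gadd45g, a stress-response gene, was at 250 and 449 CPM (0.85), Zfp36, which degrades AU-rich mRNA, at 263 and 424 CPM (0.69) and Jun at 2336 and 3611 CPM (0.63, 0.58 to 0.68). Klf2 was at 53.0 and 92.9 CPM (0.81, 0.50 to 1.12), but at a log2 ratio of 0.23 with insulin, Gcg and Ppy each under 2%. Its UMIs fell in 23.6% of virgin and 26.7% of multipara delta cells. Npas4, an activity-induced factor, was at 40.3 and 70.6 CPM (0.81, 0.45 to 1.17).

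Other members lay in the same direction with smaller ratios. Fos was at 2843 CPM in virgin and 3799 CPM in multipara (0.42, 0.37 to 0.46), Junb at 1122 and 1469 CPM (0.39), Ier2 at 888 and 1202 CPM (0.44) and Dusp1, a MAP kinase phosphatase with a CRE in the promoter printed above, at 386 and 572 CPM (0.57). The other genes with a printed CRE were at smaller ratios, Btg2 at 1159 and 1340 CPM (0.21), Ppp1r15a at 239 and 266 CPM (0.15) and Maff at 0.11. Against the direction of the list were Mcl1 (102 and 83.2 CPM, -0.29), Per1 (73.2 and 63.9 CPM, -0.20) and Klf4 (51.9 and 40.3 CPM, -0.36).

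Summed over the list, delta cells held 17831 CPM in virgin and 22879 CPM in multipara. Alpha cells held 11974 and 11937 CPM, beta cells 8032 and 8544 and PP cells 8182 and 8437. Thus the summed share of all UMIs was highest in delta cells in both libraries. Hormone genes took less of that total in delta cells, and the sums were not corrected for this. In virgin, the peptide genes summed to 281925 CPM in delta, 397440 in alpha, 615284 in beta and 556028 in PP cells. The median ratio of the list was -0.05 in alpha (16 of 43 higher), 0.12 in beta (26 of 43) and 0.03 in PP cells (24 of 42). These sets come from the same 2 libraries, and the difference between cell types was not tested.

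**Figure D3:**
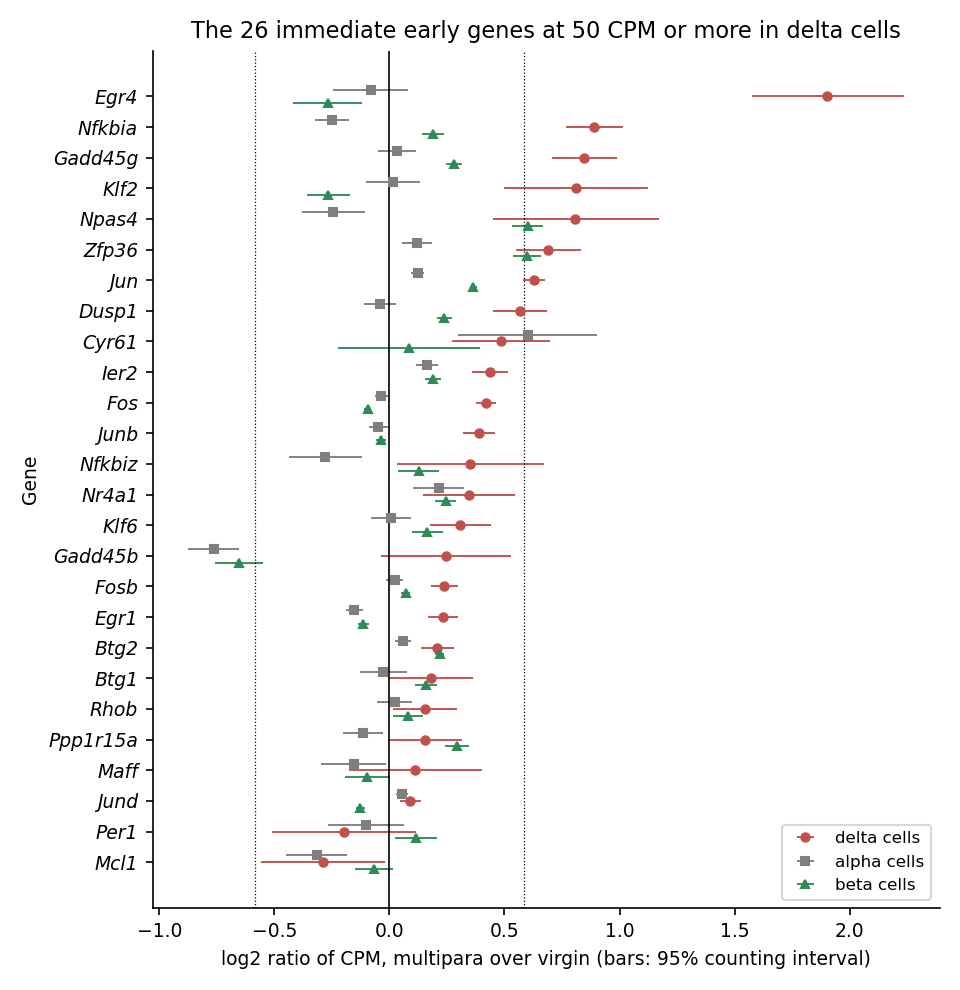
log2 ratio of CPM, multipara over virgin (x axis), for the 26 immediate early genes at 50 CPM or more (rows), in delta (red circles), alpha (grey squares) and beta cells (green triangles), with bars for the 95% counting interval and dotted lines at 1.5-fold. Egr4 lies at 1.90 in delta cells, and 7 genes lie to the right of the upper dotted line.

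The higher summed level of the list was spread over the cells and not carried by a few. With each cell thinned to 5500 UMIs (236 virgin and 212 multipara delta cells were deep enough), the list gave a median of 94.5 UMIs per virgin cell (quartiles 70 and 126) and 116.5 per multipara cell (quartiles 89 and 157). The virgin upper quartile of 126 UMIs was exceeded by 58 of 236 virgin cells (24.6%) and 93 of 212 multipara cells (43.9%). Single genes could be more uneven. Without thinning, the 10% of cells with the most held 75.2% of virgin and 66.9% of multipara UMIs of Egr4. For Klf2 these values were 75.4% and 76.0%, and for Npas4 58.3% and 51.8%. For Gadd45g, Nfkbia, Zfp36 and Jun they were 38.9% or less in both libraries. Cells are not replicates, so these shares describe the 2 libraries.

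**Figure D4:**
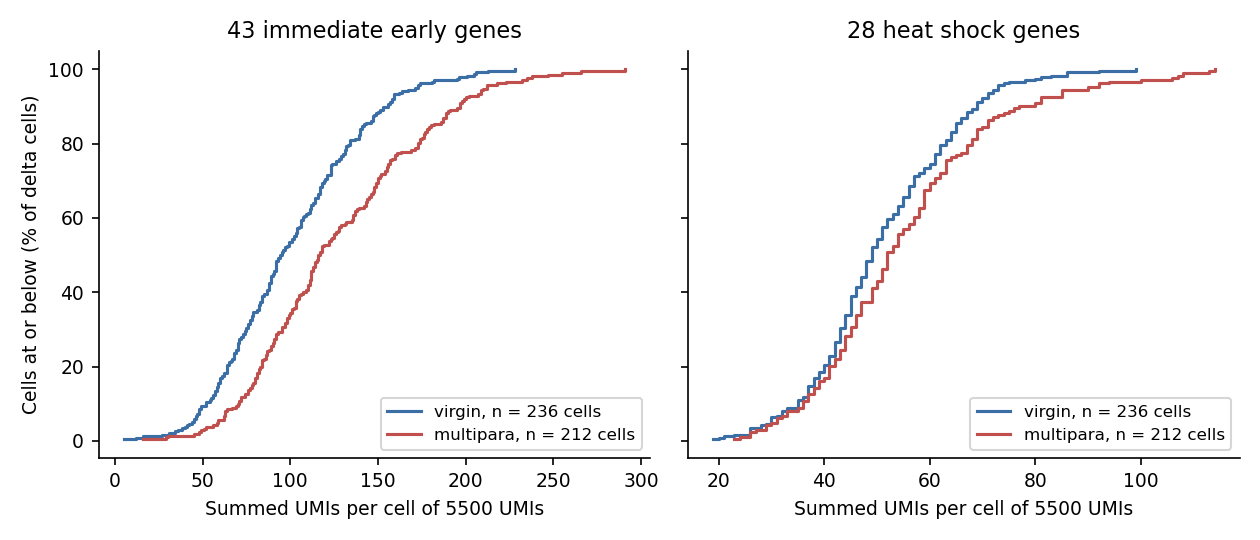
Cumulative share of delta cells (y axis, %) against the summed UMIs per cell, at 5500 UMIs per cell, of 43 immediate early genes (left) and of the 28 genes of the heat shock list (right), for 236 virgin and 212 multipara cells. The curves are well apart for the immediate early genes, with medians of 116.5 in multipara and 94.5 in virgin. They are close for the heat shock list, which leaves out Hspa1a and Dnajb1, with medians of 52 and 49 UMIs.

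The size of the difference depended on where the hormone limits were drawn. In the strictest set, with insulin, Gcg and Ppy each under 2% (141 virgin and 112 multipara cells), the median of the list was 0.04, Fos 0.20 and Jun 0.45, and 5 of the 7 genes stayed past 1.5-fold. By Ppy range the median was 0.13 under 1% Ppy (97 and 106 cells, 26 of 41 genes higher), 0.34 between 1 and 5% (157 and 130 cells, 30 of 41) and 0.21 in the cells past the limit (107 and 81 cells, 31 of 41). Egr4 was at 31.6 and 118 CPM under 1% Ppy (1.90), at 41.8 and 158 CPM between 1 and 5% (1.92) and at 54.4 and 47.8 CPM past the limit (-0.19, -0.78 to 0.39). Nfkbia gave 0.80, 0.96 and 0.02 (-0.22 to 0.25) in the same order, so neither gene was higher in the multipara cells left out for Ppy. Hspa1a was higher in all 3 ranges (0.49, 0.66 and 0.58), as was Jun (0.54, 0.69 and 0.38).

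The listed heat shock genes lay on both sides of 0. The list leaves out the inducible genes Hspa1a, which was just past 1.5-fold, and Dnajb1. Both are given below with the stress genes of the study. Over the 28 of the list the median was 0.02, with 15 higher and 13 lower. Of the 24 at 50 CPM or more, 1 (Hspb1) passed 1.5-fold. Hspb1, a small heat shock protein gene, was at 586 CPM in virgin and 912 CPM in multipara (0.64, 0.54 to 0.73), and in alpha cells at only 10.5 and 13.4 CPM. Hsph1 was at 227 and 301 CPM (0.41) and Dnajb4 at 109 and 141 CPM (0.38). Hspa8, the constitutive HSC70 gene, was at 1870 and 2046 CPM (0.13), Hsp90ab1 at 1937 and 2003 CPM (0.05) and Cct2 of the chaperonin at 166 and 141 CPM (-0.24). Of the 9 stress genes that the study named from these libraries, which are therefore no independent evidence, 6 were higher and 3 lower (median 0.34), among them Hspa1a (979 and 1470 CPM, 0.59), the HSP40 cochaperone gene Dnajb1 (690 and 980 CPM, 0.51), Atf3 (829 and 1058 CPM, 0.35) and Ddit3 (64.6 and 62.6 CPM, -0.04). The 9 genes had a median of 0.14 in alpha and 0.49 in beta cells.

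Genes of the ER lay near the median of all genes. Of 41 ER folding and secretory pathway genes, 13 were higher and 28 lower in multipara delta cells (median -0.11), and none of the 28 at 50 CPM or more passed 1.5-fold. Hspa5, the ER chaperone BiP, was at 788 and 786 CPM (0.00, -0.09 to 0.09), Hsp90b1 at 896 and 828 CPM (-0.11) and Xbp1, a transcription factor of the unfolded protein response, at 213 and 176 CPM (-0.28, -0.46 to -0.09). Their medians in the other cells were 0.03 in alpha (30 of 42 higher) and 0.18 in beta cells (37 of 42 higher), where Hspa5 went from 1220 to 1356 CPM. The 23 genes of the integrated stress response had a median of -0.07, with Atf4 at 257 and 259 CPM.

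Cholesterol synthesis genes were mostly higher, as in the other endocrine cells. In delta cells 19 of 23 were higher and 4 lower, with a median of 0.21, and 1 of 4 at 50 CPM or more (Hmgcs1) passed 1.5-fold. Insig1, a sterol-responsive brake on the pathway, was at 31.4 and 48.7 CPM (0.64, 0.22 to 1.06), and Msmo1, a later enzyme, at 60.5 and 70.2 CPM (0.21, -0.11 to 0.54). The median was 0.21 in alpha, 0.27 in beta and 0.27 in PP cells.

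Lowest in multipara relative to virgin was Dbp (chr7:45705088-45710203, plus strand), a clock-controlled transcription factor. It was at 118 CPM in virgin and 53.4 CPM in multipara, a log2 ratio of -1.15 (-1.46 to -0.85), with UMIs in 56.7% and 33.5% of cells, and lay at -0.39 in alpha and -0.17 in beta cells. By Ppy range Dbp gave -0.73, -1.45 and, past the limit, -0.29 (-0.77 to 0.18). Ramp1, an accessory protein of the calcitonin receptor family, was at 135 and 79.0 CPM (-0.77, -1.04 to -0.52), and was also lower in multipara alpha (-1.16), beta (-0.44) and PP cells (-0.90). Ccnd1, the G1 cyclin D1, was at 171 and 113 CPM (-0.60, -0.82 to -0.38), Gatm, which makes the creatine precursor guanidinoacetate, at 86.6 and 51.3 CPM (-0.76), Btg3 at 68.7 and 38.7 CPM (-0.83) and Serping1, the C1 inhibitor, at a log2 ratio of -0.73. A2ml1 was at -0.73, and Zmiz1, Nfic and Ctdsp2 lay close to the limit at -0.59 each, with Fgf12 just short of it at -0.58. B2m, the class I light chain, was at 73.2 and 46.6 CPM (-0.65), but at -0.20 once the 3 virgin cells with endothelial UMIs were left out. Without those 3 cells, B2m, Ctdsp2, Nfic and Zmiz1 of the 12 lower genes no longer passed 1.5-fold, and of the 22 higher genes Hspa1a and Rgs16 did not.

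Most other groups lay near the median of all genes. Medians were -0.02 for 76 oxidative phosphorylation genes (31 higher, 45 lower), -0.05 for the 13 protein genes of the mitochondrial genome, -0.05 for 38 cAMP and cGMP signalling genes, 0.01 for 32 exocytosis genes, -0.03 for 26 glucose sensing and metabolism genes and -0.09 for 26 antioxidant genes. Cell cycle genes gave -0.22 (3 of 17 higher), antigen presentation -0.25 (5 of 19) and adhesion -0.16 (4 of 22). Without the 3 virgin cells with endothelial UMIs, the antigen presentation median was -0.13, beside -0.08 over all genes. Proliferation markers were at the floor, with 1 and 0 UMIs of Mki67 and none of Top2a, which at the limit of 3 counts that a count of 0 allows leaves room for a share of up to 1.18% of virgin and 1.27% of multipara delta cells with a Top2a UMI. Genes tied to beta cell adaptation in pregnancy gave -0.03 over 11 genes, with no UMI of Tph1 in delta cells of either library.

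**Figure D5:**
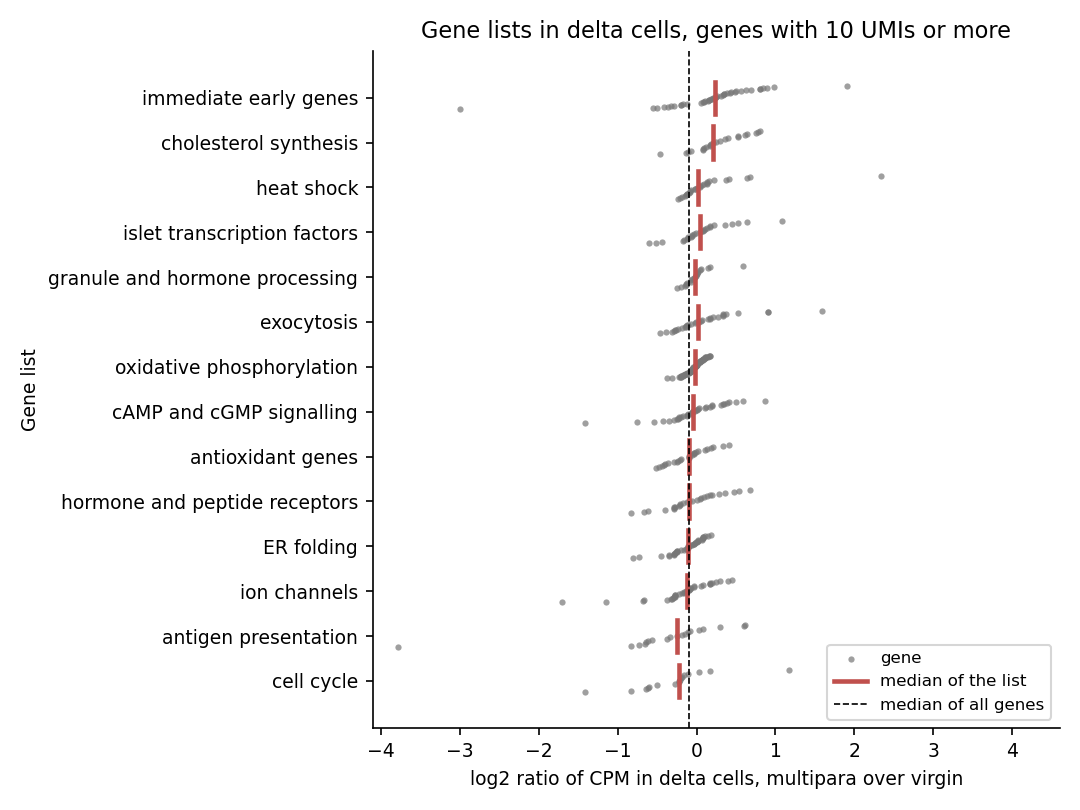
log2 ratio of CPM in delta cells, multipara over virgin (x axis), for genes with 10 UMIs or more in 14 lists (rows). Grey points are genes, red bars the median of each list and the dashed line the median of all genes (-0.09), with the immediate early genes at 0.23 and the cholesterol synthesis genes at 0.21.

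With the hormones of the selection left out, delta cells differed most among themselves in other peptide hormones, in Malat1 and in stimulus-induced genes. At equal depth the variance of Pyy was 65.5 times its mean over virgin cells and 55.3 times over multipara cells, that of Iapp 32.3 times in both, and that of the nuclear RNA Malat1 23.3 and 28.0 times, where counting error alone would give about 1. Hspa1a (10.6 and 9.72), Rbp4 (10.3 and 9.64), Fos (7.70 and 9.02) and Chga (7.70 and 17.1) followed, and Resp18, Jun, Atf3 and Hspb1 were also among the 12 most variable of the other genes. The hair keratin-associated gene Krtap17-1 was found in 20.5% and 21.2% of cells, with 85.2% and 85.9% of its UMIs in the 10% of cells with the most.

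Across cells of equal depth, induced genes went together within each library. Spearman's rho of Fos with Jun was 0.59 over 236 virgin cells and 0.67 over 212 multipara cells, of Fos with Dusp1 0.48 and 0.58 and of Hspa1a with Dnajb1 0.45 and 0.44. The link between the families was looser, with Fos and Hspa1a at 0.25 and 0.28. Sst went with lower Jun (-0.26 and -0.29) and lower Ppy (-0.23 and -0.34), although shares of one total are bound to trade off, and Pyy was all but unrelated to Ppy (-0.02 and 0.14). The sum over the immediate early list went with total UMIs at -0.20 and -0.10 and with the mitochondrial share at -0.15 and -0.22. These are descriptions over cells that share a library, with no test.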

How the data were processed

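Islet cells of 1 virgin and 1 multipara library were sequenced with 10x Chromium 3′ v3.1 chemistry. Per the submitters' processing notes the authors used Cell Ranger 3.1.0, Seurat 3.0 and the builds GRCm38 and mm10. The values deposited by the authors are unnormalized UMI counts of 31053 genes in each barcode. Cells were filtered by the study's stated limits. Python 3.11.15, scipy 1.17.1 and scanpy 1.11.5 (Scrublet) were used. Delta, alpha, beta and PP cells were set by 1 hormone at 5% or more and the other hormones under 5%, UMIs were summed per library, and CPM given with exact Poisson, ratios with exact conditional binomial and shares with Clopper-Pearson 95% intervals. List genes needed 10 UMIs in all. Named genes were the 12 highest and 12 lowest ratios at 50 CPM or more, the 25 leading genes, the 12 most variable genes (hormones of the selection left out of all these) and list members. The calculation was tested on simulated data. Alternatives varied the cell limits, doublet removal, depth, scaling (TMM of edgeR 4.0.16) and low-count limits. Members and lists were chosen with earlier results of these data known. Gene positions are GENCODE M21 and promoters RefSeq on GRCm38.p6. Genes that share a symbol (71) and near-identical copies such as Hspa1a and Hspa1b may divide reads uncertainly.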

Additional observations from a re-analysis of the deposited data

Results flagged for a closer look

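Among the immediate early genes and the 24 genes of highest and lowest ratio, those past 1.5-fold in delta cells were compared with alpha and beta cells. For 5 of them the log2 ratio of multipara over virgin had opposite directions in delta cells and in alpha or beta cells, with counting intervals on opposite sides of 0. Egr4 was 1.90 in delta and -0.27 (-0.42 to -0.12) in beta cells. Klf2, a transcription factor of the immediate early list, was 0.81 (0.50 to 1.12) in delta and -0.27 (-0.36 to -0.17) in beta cells. In delta cells with insulin, Gcg and Ppy each under 2%, Klf2 was at 0.23. Nfkbia was 0.89 in delta and -0.25 (-0.33 to -0.18) in alpha cells, and Npas4, an activity-induced factor, 0.81 (0.45 to 1.17) in delta and -0.24 (-0.38 to -0.11) in alpha cells. B2m was -0.65 in delta and 0.27 (0.17 to 0.38) in beta cells, and in delta cells it rested largely on 3 virgin cells with endothelial UMIs. With 1 library per group these differences between cell types were not tested.

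Outside the cells analysed, 15 virgin and 22 multipara barcodes met the hormone limits of delta cells but held 10% or more mitochondrial UMIs (medians 17.5% and 15.3%). They had a median of 5896 and 12351.5 UMIs and kept Rbp4 at 3859 and 5409 CPM and Hhex at 207 and 203 CPM. Fos was at 2186 and 2718 CPM and Jun at 2528 and 2873 CPM in them, higher in multipara as in the kept delta cells.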

How the results depend on the processing

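No paired analysis was possible because each group has 1 library. Of 552 values of 46 named genes under the alternatives, 546 kept their direction. The 46 include the 12 highest and 12 lowest ratios in these same cells, and Sst, Ins1, Ins2 and Gcg of the selection. The alternatives mostly reuse these cells, so a kept direction was likely beforehand. Of 276 list medians, 264 stayed within the counting interval of the list gene nearest the median. That interval is wide for short lists (peptide genes 0.14 to 0.77, antigen presentation -0.30 to -0.13). The delta share was 4.92% and 5.08% (virgin, multipara) without the cell filter, 3.21% and 3.32% with the other hormones each under 2%, and 8.22% and 9.40% with no limit on Ppy. Genes past 1.5-fold numbered 38 higher and 19 lower without 8 hormone genes in the total, 51 and 132 at 20 CPM or more, and 643 and 1265 at 10 UMIs or more. Lower genes numbered 37 with the other hormones under 2%, 7 under TMM and 31 at 5500 UMIs per cell. The immediate early median was 0.045 with the other hormones under 2% and 0.31 under TMM, and that of the study's stress genes 0.20 with cells weighted equally. The mitochondrially encoded median turned to 0.17 without the cell filter and 0.026 under TMM, and was -0.016 without the hormone genes, where cholesterol and heat shock genes past 1.5-fold numbered 2 each. The pregnancy list gave -0.19 at 10% Sst, -0.20 with the other hormones under 2%, -0.17 without doublets or the endothelial cells, 0.051 under TMM and -0.23 with cells weighted equally. Thinning gave cells with Ghsr as 7.63% and 8.02% and with Egr4 as 11.4% and 26.4%. The absent Ppy limit, the removal of endothelial cells and the thinned shares were chosen after seeing the data. The cause of these shifts was not tested. Genes under about 50 CPM, Ghsr included, rest on few UMIs.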
